A study of Mus musculus with 960 samples.

Results

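CpG island promoter windows of a mouse breast tumor, without divergent protein-coding start sites, were examined in a list of 50000 accessible regions. They are called single-direction by the annotation of protein-coding starts, and transcription was not measured. A 500 bp window counted as a member when its summit lay within 1 kb of a protein-coding start site, its GC content was at least 55% and its CpG observed/expected ratio was at least 0.65. The ratio compares the CpG dinucleotides in a window with the number its C and G content would give. Windows within 1 kb of 2 start sites of different genes that pointed away from each other and lay at most 1 kb apart were left out as bidirectional. These rules kept 9737 windows, 19.5% of the list. They came from 7680 called peaks and were nearest to start sites of 7301 genes. The other windows were 1036 CpG island windows at bidirectional promoters, the remaining windows at bidirectional promoters (0.882% of the list), 6720 CpG-poor windows at single-direction promoters and 32066 windows more than 1 kb from any protein-coding start site.

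The cells came from a primary tumor of an MMTV-PyMT mouse, in which the mouse mammary tumor virus promoter drives the polyoma middle T oncogene in the mammary epithelium, taken at 3 months of age. They were fixed, stained with antibodies, tagged with Tn5 transposase (ATAC-seq, which reads out accessible DNA) and sorted 1 per well. Of 960 labelled wells, 80.0% (8 plates) were stained for EpCAM, which marks epithelium, and for HIF1α, a transcription factor that oxygen destabilizes. The other 20.0% (2 plates) were stained for EpCAM together with CD45, which marks leukocytes. The list was called on pooled cells and is 1 sample without replicates, scores or read counts. Which wells entered the pool was not stated, so no comparison of stains, wells or HIF1α levels was made. Shares are given with exact (Clopper-Pearson) 95% intervals, which cover counting error only, and neighboring windows and genes are not independent. All 8 epithelial markers examined had a window at a start site (Epcam, Krt8, Krt18, Krt19, Cdh1, Cldn4, Cldn7 and Elf3), none of 6 blood markers and none of 4 endothelial markers had one, and among 5 fibroblast markers only Pdgfra did. These sets are short, and some genes of longer blood, endothelial and stromal lists did have windows, as given below.

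CpG islands are stretches rich in unmethylated CpG that surround the start sites of most housekeeping genes and many developmental regulators. Their chromatin is often open whether or not the gene is strongly transcribed, and factors of the SP/KLF, ETS, NRF, NFY and CREB families bind short elements in them. Islands of silent developmental genes are held by Polycomb complexes in many tissues.

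Sequences from member windows are shown to let the elements be read in place, with the stretch chosen for the most matches to an element. Each is given 5′ to 3′ on the strand of its gene, on build mm9, with the matches on either strand in capitals. Each ends upstream of the start site nearest to its window's summit, outside annotated exons. Hnrnph1, an RNA-binding protein, carried 3 NRF elements (CGCATGCG) at chr11:50190963-50191195, plus strand. This stretch lies upstream of an internal start and downstream of the gene's outermost start at chr11:50190492. Nr1h2, which encodes the liver X receptor beta, carried 6 ETS elements (CCGGAAG) in its window, 5 of which lie in the stretch at chr7:51809322-51809448, minus strand. Pdia4, an endoplasmic reticulum protein disulfide isomerase, had 6 NFY elements (CCAATC) in its window, 3 of them at chr6:47763551-47763754, minus strand. Pak1, a p21-activated kinase, had 2 cyclic AMP response elements (CRE, TGACGTCA) at chr7:104936799-104936906, plus strand. Mapk14, the p38 alpha kinase, had 5 CGCG elements (TCTCGCGA) in its window, 3 of them at chr17:28828183-28828281, plus strand. Neighboring matches can overlap, as in TCTCGCGAGA of Mapk14, which holds the CGCG element on both strands.
Hnrnph1: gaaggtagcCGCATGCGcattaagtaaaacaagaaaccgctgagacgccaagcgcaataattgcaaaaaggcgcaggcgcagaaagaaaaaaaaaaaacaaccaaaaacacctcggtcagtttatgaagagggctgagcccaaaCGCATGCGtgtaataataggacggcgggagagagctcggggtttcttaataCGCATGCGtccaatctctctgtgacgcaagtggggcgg
Nr1h2: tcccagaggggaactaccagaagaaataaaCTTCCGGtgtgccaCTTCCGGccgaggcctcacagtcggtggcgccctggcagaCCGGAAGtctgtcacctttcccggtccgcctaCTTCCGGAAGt
Pdia4: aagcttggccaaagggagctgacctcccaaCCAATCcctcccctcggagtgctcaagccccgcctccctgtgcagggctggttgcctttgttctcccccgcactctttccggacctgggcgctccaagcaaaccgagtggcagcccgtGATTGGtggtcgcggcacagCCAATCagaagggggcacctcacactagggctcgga
Pak1: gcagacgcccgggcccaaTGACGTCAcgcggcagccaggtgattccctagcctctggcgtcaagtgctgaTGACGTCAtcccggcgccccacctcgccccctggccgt
Mapk14: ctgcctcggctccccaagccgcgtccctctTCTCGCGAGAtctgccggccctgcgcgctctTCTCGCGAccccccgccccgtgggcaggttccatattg

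A second pair of sequences shows a CpG-rich promoter without a window beside one with a window. The 200 bp upstream of the outermost island start sites of Hoxa4, a body-plan regulator (chr6:52141753-52141952, minus strand), and Rpsa, a ribosomal protein (chr9:120036684-120036883, plus strand), are given on the gene strand of mm9 with each CpG in capitals. The pair was chosen after the values were seen, as the genes with the highest CpG count among the Hox genes without a window and the ribosomal protein genes with one that had no annotated exon in this stretch. Hoxa4 had 16.0 CpG per 100 bp here and 86.5 per kb within 1 kb of its start, and its closest window of any class lay 127341 bp away. Rpsa had 9.0 per 100 bp here and 50.0 per kb within 1 kb, and a member window 0.126 kb from its start site.
Hoxa4: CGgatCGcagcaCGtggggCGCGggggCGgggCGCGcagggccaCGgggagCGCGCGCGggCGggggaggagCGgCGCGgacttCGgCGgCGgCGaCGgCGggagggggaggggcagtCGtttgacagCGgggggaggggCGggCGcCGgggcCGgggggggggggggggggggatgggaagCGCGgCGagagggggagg
Rpsa: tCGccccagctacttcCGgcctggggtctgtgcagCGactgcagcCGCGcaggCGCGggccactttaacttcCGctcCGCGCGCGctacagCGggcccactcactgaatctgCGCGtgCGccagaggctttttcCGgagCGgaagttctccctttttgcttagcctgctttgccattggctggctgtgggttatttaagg

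To give the windows a denominator, every protein-coding gene was taken whose annotation had at least 1 start site with GC of at least 55% and a CpG ratio of at least 0.65 in the surrounding 500 bp and no divergent partner within 1 kb. Of 22342 protein-coding genes 9164 (41.0%) had such a start and are called island genes below. A member window lay within 1 kb of the island start in 6889 of the 9164 island genes, the background of 75.2% (74.3 to 76.1%) against which the gene groups are read. A further 6.57% had windows of another class only, and 1673 (18.3%, 17.5 to 19.1%) had no window within 1 kb. Among the 13178 other protein-coding genes, 3970 (30.1%, 29.3 to 30.9%) had a window of any class at a start site.

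Most island genes with a window had 1. One member window was found at 4896 genes (53.4% of island genes), 2 at 1644 (17.9%), 3 at 3.12% of them, 4 at 48 genes, 5 at 14 and 6 at Fgfr2. Fgfr2, a fibroblast growth factor receptor, reached 6 only through start sites far apart in its annotated gene record. That record spans chr7:137305965-140315033, and the windows counted for it ran from chr7:137408442 to chr7:140316217. The span also holds a window at the start of another gene, Zranb1 (chr7:140122571-140123070). Whether all 6 windows lie at promoters of Fgfr2 itself was not tested. The other 11 genes named for the most windows, each with 5, were Ahdc1, Arid1b, Bcor, Cecr2, Elf2, Fam60a, Gse1, Hnrnpl, Lmo4, Mll3 and Nr3c1. Several of these act on chromatin or transcription: Arid1b is a subunit of the SWI/SNF remodeler, Bcor a Polycomb-associated corepressor, Mll3 a histone H3 lysine 4 methyltransferase, Elf2 an ETS factor, Lmo4 a LIM-domain cofactor and Nr3c1 the glucocorticoid receptor. They were picked for their count and 14 genes in all had 5, so the names are a description.

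**Figure D1:**
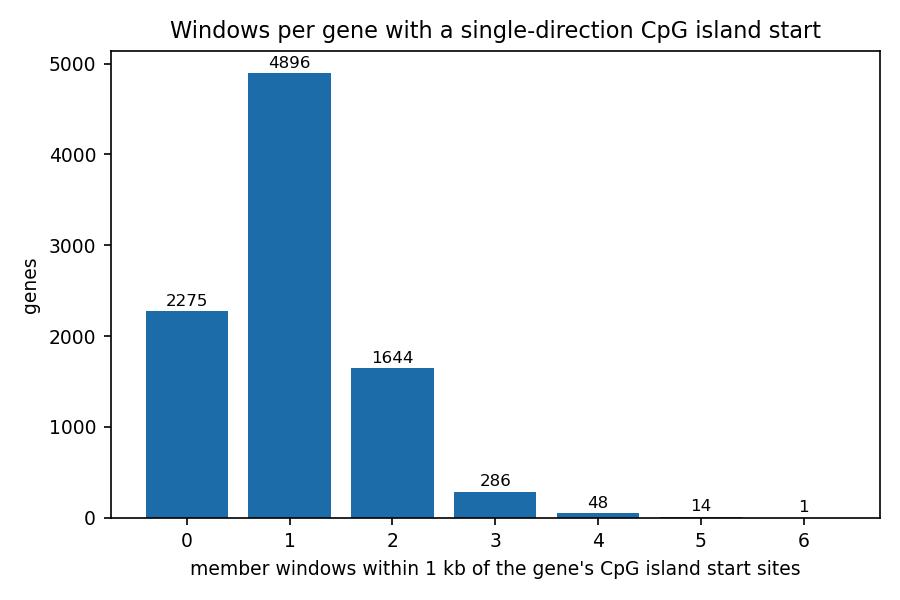
Number of island genes (y axis, genes) by how many member windows lay within 1 kb of their island start sites (x axis). Bars give counts, with 2275 genes at 0, 4896 at 1 and a falling tail to 1 gene at 6.

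Within a single called peak, up to 5 member windows were kept. One member window came from each of 5921 called peaks (77.1%), 2 from 1499, 3 from 2.94%, 4 from 30 and 5 from 4. The 4 calls with 5 lay at Nr3c1, at Fam60a, a SIN3 complex subunit (chr6:148893004-148895297), at Hnrnpl, a splicing regulator (chr7:29593575-29596595), and at Gse1, which encodes a coiled-coil protein (chr8:123059636-123062320). Summits at Gse1 ran from 0.767 kb upstream to 0.742 kb downstream of their nearest start sites and its call kept 9 windows in all, while at Hnrnpl they ran from 0.264 kb upstream to 0.390 kb downstream. Rev3l, Hnrnph1, Rnf44 and Zfp503 had 4, tied with other calls and taken in the order of chromosome names. Zfp503, a zinc finger repressor, had 7 kept windows in its call.

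Member summits sat close to start sites and slightly upstream. Their median position was 13 bp upstream, with quartiles at 95 bp upstream and 100 bp downstream, and 54.8% (53.8 to 55.8%) lay upstream. With only the outermost start site of each gene the share was 48.5%, so the upstream excess rested on the choice of start sites. Within 100 bp of the start lay 51.3% of them and within 250 bp lay 76.0%. CpG-poor promoter windows were spread more widely, with a median 1 bp downstream, quartiles at 0.218 kb upstream and 0.372 kb downstream, and 28.0% within 100 bp. The CpG island windows of bidirectional promoters were tighter than either, with 67.0% within 100 bp.

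Downstream of the start the members showed a shoulder that was weaker upstream. Summits at least 200 bp downstream made up 19.1% of members and those at least 200 bp upstream 8.87%. Between 300 and 500 bp the shares were 8.31% downstream and 2.75% upstream. CpG-poor promoter windows were more even there, with 8.97% downstream and 7.26% upstream. A window that fails the GC or CpG limits is not a member even beside an island, as upstream of Vegfa. The part of the rule in the asymmetry of members was not tested. The downstream shoulder of members came with calls that kept 2 or more windows. In those, 13.7% of members lay 300 to 500 bp downstream, against 2.38% where the member was the only kept window of its call.

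The extra member summits of a call lay mostly inside the gene. When the window closest to a start site was set aside in each of the 7680 called peaks, the other 2057 member windows had a median position 0.298 kb downstream. Of them 59.9% lay at least 200 bp downstream and 19.2% at least 200 bp upstream. The closest windows themselves had a median of 25 bp upstream, and 61.0% (59.9 to 62.1%) of them lay upstream. In the gene annotation 47.7% of the closest windows had their summit outside transcripts, 31.0% in an untranslated exon and 13.5% in an intron. The other windows had 52.5% in an intron, 19.8% outside transcripts and 14.2% in a coding exon. Neighboring members of a call lay a median 0.440 kb apart, with quartiles of 0.325 and 0.559 kb over 2023 pairs, against 0.401 kb away from start sites and 0.411 kb at CpG-poor promoters. The windows are 500 bp wide, so 64.1% of the neighboring member pairs overlapped.

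**Figure D2:**
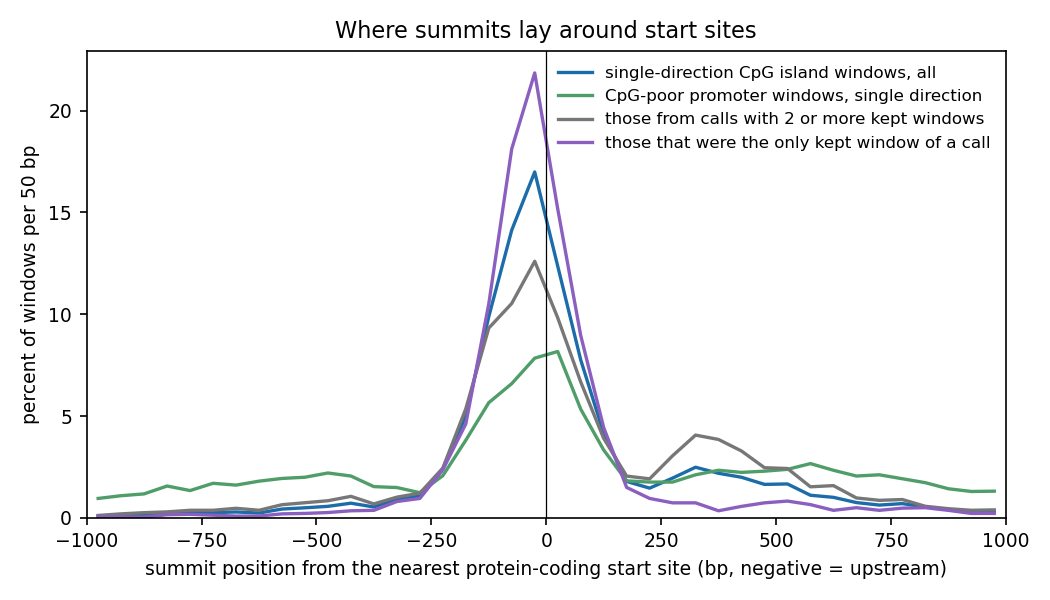
Percent of windows per 50 bp (y axis) by summit position from the nearest start site in bp, negative upstream (x axis), for all members, for members split by whether their call kept 1 or more windows, and for CpG-poor promoter windows. Members peak just upstream of 0, and the shoulder at 300 to 500 bp downstream is 13.7% of members in calls with several windows and 2.38% in calls with 1.

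Members came from a call with 2 or more kept windows in 52.6% of cases (51.6 to 53.6%). The share was 59.4% (56.3 to 62.4%) for CpG island windows at bidirectional promoters, 59.1% (57.9 to 60.3%) for CpG-poor promoter windows and 30.8% (30.3 to 31.3%) for windows away from start sites. Such broad calls were more frequent at promoters of each of these classes than away from them, and the members had the lowest share among the 3 promoter classes. When windows overlapping by 250 bp were merged first, 5.41% of members and 4.34% of all other windows remained in calls with several regions.

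Gene groups were read against the background of 75.2% of island genes. Most groups of cell machinery had shares above it, an order of point values that turned for most of them under stricter sequence limits. A window was found at 49 of 57 cytosolic ribosomal protein genes (86.0%, 74.2 to 93.7%), 21 of 25 proteasome subunits (84.0%, 63.9 to 95.5%), 11 of 14 aminoacyl-tRNA synthetases (78.6%) and 24 of 28 RNA polymerase II and Mediator subunits (85.7%). Core spliceosome proteins had 19 of 22 (86.4%), V-ATPase and COPI subunits 14 of 16 (87.5%), and replication licensing and fork genes 16 of 20 (80.0%). The exact interval of each of these groups spans 75.2%, so a difference from island genes at large was not detectable at these group sizes. Under stricter limits (GC 60%, ratio 0.75), with 70.0% over all island genes, the shares of 5 of these 7 groups fell below the background. Ribosomal protein genes had 28 of 41 (68.3%), proteasome subunits 5 of 13 (38.5%) and aminoacyl-tRNA synthetases 2 of 5 (40.0%). RNA polymerase II and Mediator subunits had 12 of 20 (60.0%) and spliceosome proteins 9 of 14 (64.3%). Of these 5 intervals only that of the proteasome subunits (13.9 to 68.4%) lay under 70.0%, and the others spanned it. Chaperones had 11 of 16 (68.8%, 41.3 to 89.0%).

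Among ribosomal protein genes Rpl24 had 3 member windows, and Rpl21, Rpl29 and Rpl30 had 2 each. Rpl13a, Rps21 and Rps29 had no window at their island starts (Rpl13a had one at another annotated start), although they held 47.0, 47.5 and 50.5 CpG per kb within 1 kb of their starts, near the group's median of 49.5. Psma1, Psma3, Psma5 and Adrm1, all of the proteasome, had 1 member window each, and no proteasome island gene was without a window of some class. Dars, an aspartyl-tRNA synthetase, had 2, and Aars, Cars and Eprs had 1 each. In transcription and splicing, Polr2a, the largest RNA polymerase II subunit, Cdk8 and Med31 had 2, Ccnc had 1, U2af2 had 3, Prpf6 and Snrpe had 2 and Cdc5l had 1. Med9, Sf3a2 and Snrnp70 had none, and their closest windows lay 6813, 5889 and 9586 bp away.

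Of the remaining machinery genes Atp6v0d1 had 3 member windows and Atp6v0c and Copb1 had 2. Arcn1 had 1, and so did Cdt1, Gins1 and Gins2, while Gmnn, which encodes the licensing inhibitor geminin, had 2. Pcna, the sliding clamp of DNA replication, had an island and no window within 1 kb, its closest window being 5608 bp away. Hsp90ab1 and Hspa4 had 3 member windows, and Bag3 and Cct2 had 2. Hspa5, Hspa9 and Stip1 had none. The list was cut at its 50000 best windows, so a gene without an entry was not shown to be closed.

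Luminal epithelial genes had a member window at 15 of 19 island starts (78.9%, 54.4 to 93.9%) and hypoxia response genes at 28 of 33 (84.8%, 68.1 to 94.9%), both with intervals that spanned the background. Under the stricter limits luminal genes had 6 of 10 (60.0%, 26.2 to 87.8%) and hypoxia genes 21 of 25 (84.0%, 63.9 to 95.5%). Both intervals spanned the 70.0% of all island genes. Kit, a receptor tyrosine kinase, had 4 member windows, and Spint2, a protease inhibitor, and Tcfap2c, an AP-2 factor, had 3 each. Cdh1, which encodes E-cadherin, had 2. Foxa1, a luminal pioneer factor, and Areg, an epidermal growth factor receptor ligand, had islands without any window, the closest lying 45452 and 35112 bp away. Mxi1, a MYC antagonist, had 4 member windows, and Aldoa, a glycolytic aldolase, Kdm3a, a histone demethylase, and Vegfa, the vascular growth factor, had 3. Slc2a3, a glucose transporter, and Slc16a3, a lactate transporter, had none.

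Breadth ordered the groups differently from presence. A member window from a call with 2 or more kept windows was found at 2838 of the 9164 island genes, a background of 31.0%. It was found at 21 of 33 hypoxia response genes (63.6%, 45.1 to 79.6%) and 11 of 19 luminal epithelial genes (57.9%, 33.5 to 79.7%), with intervals above the background. Chaperones had 9 of 16 (56.3%, 29.9 to 80.2%). Ribosomal protein genes had 18 of 57 (31.6%, 19.9 to 45.2%), proteasome subunits 7 of 25 (28.0%), RNA polymerase II and Mediator subunits 7 of 28 (25.0%), spliceosome proteins 5 of 22 (22.7%), replication genes 4 of 20 (20.0%), aminoacyl-tRNA synthetases 3 of 14 (21.4%), and V-ATPase and COPI subunits 6 of 16 (37.5%), none with an interval off the background. Over all island genes CpG content moved with breadth, again partly by construction: the share of island genes with a broad call was 15.8% in the lowest quintile of genes by CpG within 1 kb and 44.3% in the highest. Median CpG per kb within 1 kb of the start was 53.5 for hypoxia, 57.0 for luminal, 61.0 for chaperone and 49.5 for ribosomal protein genes, and 33.8 to 41.0 for the other machinery groups. Groups of developmental and neuronal genes had as many CpG. Their shares with a broad call were 0% for Hox genes and 4.55% for T-box and neural bHLH regulators. Wnt and BMP/GDF ligands had 8.00%, neuronal genes 3.85% and other homeobox regulators 18.0% (8.58 to 31.4%, an interval that spans the background). A gene without a member window cannot have a broad call, so these shares are capped by presence. In the same order, a member window was found at 0 of 17, 3 of 22, 8 of 25, 7 of 26 and 17 of 50 genes. The part of CpG content in these shares was not tested. Group shares of broad calls were not run with overlapping windows merged, a setting that left 5.41% of members in calls with several regions.

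Developmental regulators lay below the background of 75.2%, each group with an exact interval wholly under it. Their islands were rich in CpG. None of the 17 Hox island genes had a member window or any window within 1 kb (0%, exact upper limit 19.5%), with a median of 59.5 CpG per kb within 1 kb. Hoxa3, Hoxa10 and Hoxa13 had their closest windows 148927, 170527 and 196463 bp away. Of the 17, the Hoxb7 start was nearest, 1356 bp from a window. Among the 22 Hox genes without a single-direction island start, 2 had a window at a start site. T-box and neural bHLH regulators had 3 of 22 (13.6%, 2.91 to 34.9%), Wnt and BMP/GDF ligands 8 of 25 (32.0%, 14.9 to 53.5%) and other homeobox regulators 17 of 50 (34.0%, 21.2 to 48.8%). Medians of CpG per kb within 1 kb of these starts were 65.5, 60.5 and 58.0.

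Members of these families that did have a window included Irx2 and Irx3, Barx2 and Lmx1b among homeobox genes, with 2 member windows each. The homeobox genes Barx1, Cdx1 and Dlx2 had none. Tbx3, a T-box regulator of mammary development, Tbx15 and Mga had 1 each, and Ascl2, Atoh1 and Atoh7, which direct neural or other lineage fates, had none. For Ascl2 the closest window lay 1059 bp away, just past the limit. Bmp7 had 2 member windows and Bmp8a and Gdf10 had 1, while Bmp2, Bmp6, Bmp8b and Gdf6 had none. The list also counts Bmp1, which had 2 and encodes a procollagen protease, not a ligand.

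Genes of other lineages were also seldom in the list. Neuronal channels and receptors had a member window at 7 of 26 island starts (26.9%, 11.6 to 47.8%), with Kcnd2, Mapt, Mtap2 and Nefl among them and Cacna1a, Cacna1b, Cacna1e and Dlg4 among those without. Fibroblast and stromal genes had 2 of 5, at Pdgfra and Timp2, and not at Col5a1, Twist1 or Twist2. Blood and endothelial genes had 2 of 7, at the transcription factors Ikzf1 and Runx1, and not at Fli1, Kdr, Runx3 or Sox18. The exact interval of the fibroblast group (5.27 to 85.3%) spanned the background and that of the blood and endothelial group (3.67 to 71.0%) lay under it. Among genes without a single-direction island start, 3 of 25 fibroblast and stromal genes had a window at a start site. So did 3 of 29 blood and endothelial genes and 2 of 16 neuronal genes. Imprinted genes, whose islands are methylated on a single parental chromosome in many cases, had 8 of 15 (53.3%, 26.6 to 78.7%). Gnas had 4 member windows and Cdkn1c, Grb10 and Igf2r had 1, and Dlk1, Inpp5f, Mest and Nap1l5 had none at their island starts, though Inpp5f had a window at another start. Broad calls were found at 1 of the 15 (6.67%, 0.169 to 31.9%).

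A member window must itself pass the GC and CpG limits, so its presence depends on CpG content partly by construction. By quintile of CpG count within 1 kb a member window was found at 68.4%, 74.4%, 76.5%, 75.5% and 80.8% of genes. Genes with a member window had a median of 51.0 CpG per kb within 1 kb and genes with no window 50.5. Their median CpG ratios in the 500 bp at the start were 0.860 and 0.812. The surroundings differed more: a median of 2 windows away from start sites lay within 50 kb of genes with a member window and 1 within 50 kb of those with no window, and the shares with none were 27.9% and 43.6%. Among genes with 4 or more member windows 15.9% had none. Where island starts of a gene fell into 2 or more groups over 1 kb apart, 42.8% of the genes (98) had a member window at every group, 34.9% (80) at some and 22.3% (51) at none.

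Letters of 15 elements were searched on both strands in the 500 bp of each window, and a match is a description and not a bound site. The rule chose members for GC and CpG, so elements that hold CpG differ between the classes partly by construction. For that reason island genes with a member window are also set against those with no window, where both sides passed the same sequence limits at the 500 bp around the start. This evens CpG content only in part, since the member side passed the limits again at its window. Genes with windows of another class only (6.57%) are on neither side. Medians in the 500 bp were still 0.860 and 0.812 for the CpG ratio and 47 and 44 for the CpG count. Elements that hold CpG can thus split partly by construction here too. ETS letters (CCGGAAG) were in 21.9% of members, 33.7% of CpG island windows at bidirectional promoters, 9.48% of CpG-poor promoter windows and 4.80% of windows away from start sites. Around island starts they were in 24.1% (23.1 to 25.2%) of genes with a member window and 12.6% (11.0 to 14.2%) of genes with no window, against 14.0% of all protein-coding starts. Each island gene counted once here, 6889 with a member window and 1673 with no window. Shares of all protein-coding starts count start sites, a different unit.

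Other elements of housekeeping promoters split island starts in the same direction. NRF letters (CGCATGCG) were at the starts of 5.08% (4.57 to 5.63%) of island genes with a member window and 2.75% (2.02 to 3.65%) of those with no window, against 2.53% of all starts. YY letters (ATGGCGG) were in 18.3% (17.4 to 19.3%) and 10.9% (9.43 to 12.5%), against 9.55%. For CRE letters (TGACGTCA) the shares were 4.33% and 2.57%, against 2.36%, and for the CGCG element (TCTCGCGA) 3.19% and 1.67%, against 1.55%, each pair with intervals that did not overlap. NFY letters (CCAATC) came to 22.8% and 18.9%, against 20.5%. SP/KLF letters (GGGCGGG) were common on both sides, at 70.2% (69.1 to 71.3%) and 64.8% (62.5 to 67.1%), against 38.8% of all starts. E2F letters (TTTNGCGC) came to 3.66% and 2.51%, and ZNF143 letters (TACAATTCC) to 0.610% and 0.239%, with intervals that overlapped in both pairs.

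Some letters were as frequent at island genes without a window. E-box letters (CACGTG) were at the starts of 14.4% (13.6 to 15.3%) of genes with a member window and 13.4% (11.8 to 15.1%) of those with no window. The HIF core (TACGTG) was in 5.86% (5.32 to 6.45%) and 5.44% (4.40 to 6.64%), against 5.52% of all starts, and in 6.13% of members, 6.24% of CpG-poor promoter windows and 5.05% of windows away from start sites. The E-box and the HIF core share the letters ACGTG, and 1 site cannot match both. Ankrd37, a known target of hypoxia-inducible factor, had 3 HIF core matches in its member window at chr8:47085120-47085619.

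Elements of enhancers were rarer in members than in CpG-poor promoter windows and windows away from start sites. Their letters hold no CpG, while members were chosen for GC. Median GC was 65.8% in members, 54.6% in CpG-poor promoter windows and 50.4% away from start sites. These class differences can thus also arise partly by construction, and the part of base composition was not tested. AP-1 letters (TGANTCA) were in 5.09% of members, 12.9% of CpG-poor promoter windows and 18.6% of windows away from start sites. TEAD letters (GGAATG) came to 15.0%, 24.0% and 28.2%, and GRHL letters (AACCNGTT) to 2.08%, 4.91% and 6.07%. CpG island windows at bidirectional promoters were close to the members, at 4.25% for AP-1, 13.2% for TEAD and 2.70% for GRHL. Around island starts AP-1 letters were in 4.76% with a member window and 4.48% with no window, against 9.33% of all starts. TEAD letters were in 14.6% and 13.6%, against 20.2%, and GRHL letters in 1.84% and 2.03%, against 3.06%. For each element the intervals with and without a window overlapped. The AP-1 window with the most matches, 3, lay 0.483 kb downstream of the start of Pvr, a poliovirus receptor homolog.

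**Figure D3:**
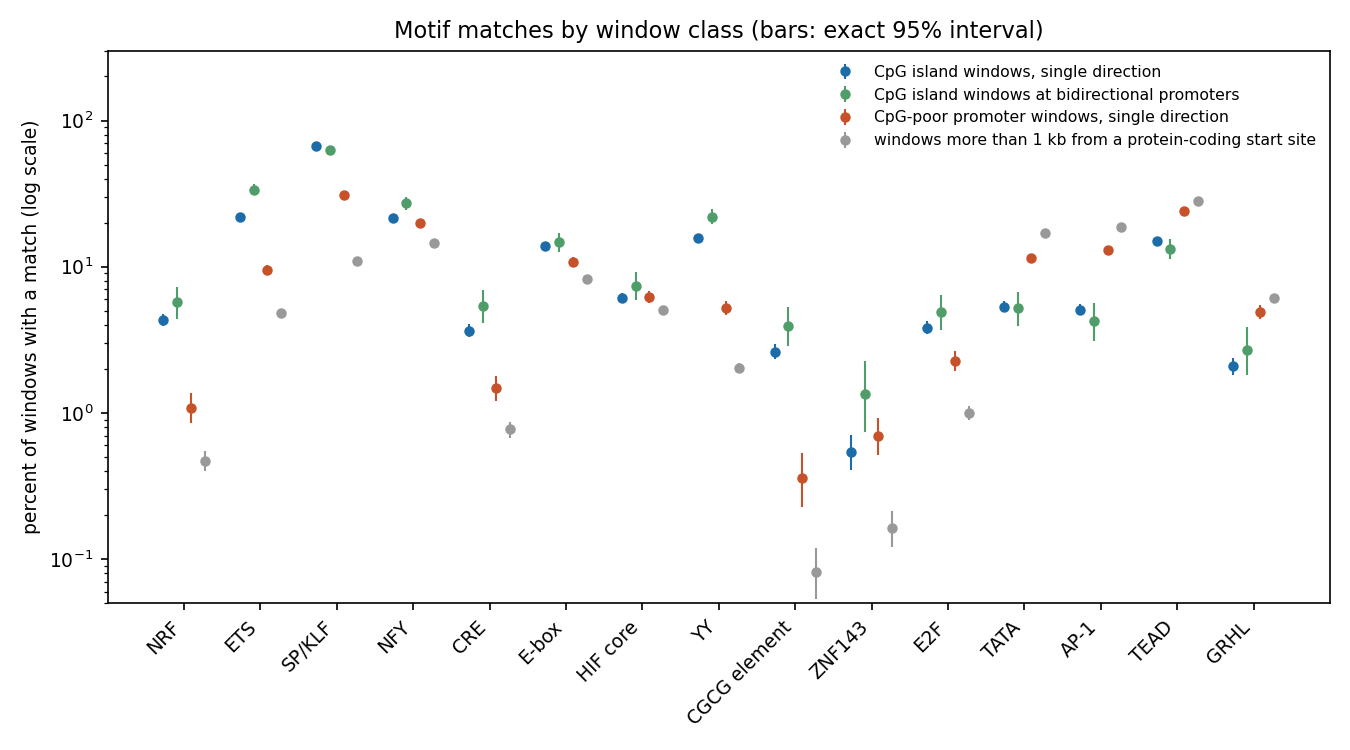
Percent of windows with at least 1 match on either strand (y axis, log scale) for 15 elements (x axis) in members, CpG island windows at bidirectional promoters, CpG-poor promoter windows and windows more than 1 kb from a start site. Points are shares and bars exact 95% intervals. ETS, NRF, YY, CRE and CGCG matches fall from promoter islands to distal windows, and AP-1, TEAD, GRHL and TATA matches rise.

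TATA letters (TATAAA) were searched separately on the gene strand 15 to 40 bp upstream of start sites, where a TATA box would lie. They were at 0.701% (0.533 to 0.905%) of the starts nearest to members and 1.02% (0.772 to 1.32%) of those nearest to CpG-poor windows. Starts of island genes with no window had 1.38% (0.874 to 2.06%), and all protein-coding starts 1.57% (1.46 to 1.69%). Of the 6 elements of housekeeping promoters shown or searched as NRF, ETS, NFY, CRE, YY and CGCG, 47.5% of members held none, 37.5% held 1, 12.9% held 2, 1.92% held 3 and none held more than 4.

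Elements differed in where they lay. In members, 53.5% of the CRE matches and 46.6% of the CGCG matches lay within 100 bp upstream of the nearest start, with medians 43.5 and 44.5 bp upstream, and NFY matches had a median 68.5 bp upstream. YY matches had a median 50 bp downstream. Within 100 bp downstream 73.1% (69.6 to 76.4%) of the YY matches were on the gene strand, against 45.3% (37.7 to 53.1%) within 100 bp upstream. A downstream lean to the gene strand was not particular to YY. It was 74.6% (62.1 to 84.7%) for E2F and 61.9% (59.5 to 64.3%) for SP/KLF matches, while NFY had 38.6% (32.0 to 45.6%). Matches lay near summits too: 36.8% of CRE, 34.9% of NFY and 34.1% of NRF matches fell within 50 bp of the summit, a stretch that is 20.2% of a window, while YY had 18.7% and TEAD 17.9%. Zc3h4, a zinc finger protein, and Hcfc1, a chromatin-bound host cell factor, had 4 YY matches each in a member window.

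Genes named in all cases showed how members sit beside other classes. Epcam had no island start, and its CpG island window, at chr17:88035686-88036185 with a GC content of 66.6% and a CpG ratio of 1.14, lay 0.617 kb downstream beside a CpG-poor window 92 bp upstream. Hif1a had 1 member window, 29 bp upstream of a start site (chr12:75008612-75009111). Vegfa had 3, at 33 bp upstream and 0.246 and 0.756 kb downstream of start sites, with 2 CpG-poor windows. Actb, the beta-actin gene, had 2 members within 52 bp of start sites. Gapdh, a glycolytic enzyme gene, had 1 member 0.398 kb downstream of a start and 4 CpG-poor windows. Gata3, a luminal transcription factor, had no single-direction island start, 2 members and 3 CpG-poor windows, and its largest call kept 13 windows.

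Chromosome X was within the range of the autosomes. A member window lay at 73.2% of its island genes (67.0 to 78.9%), against an autosome median of 75.4% (66.7 to 83.2%), a ratio of 0.971. Members made up 23.5% of the windows on X and a median 18.9% (16.6 to 24.2%) on autosomes. Other protein-coding genes on X had a window in 25.4%, against a median of 31.0% (22.1 to 38.1%). Copy number and accessibility cannot be told apart in a list of windows.

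The thresholds cut through a continuum. Members just inside the GC limit, at Mgst3 and Krr1, had 55.0%, and windows just outside, at Lipt1 and Wdr75, had 54.8%. Ratios just inside were 0.65007 at Amot and 0.65011 at Slc25a26, and just outside 0.64999 at Ggcx and 0.64998 at Sars. By distance the members at Gnb1 and Ptx3 lay 0.998 and 0.996 kb from a start, and windows at Lrp8 and Morf4l1 lay 1.001 and 1.003 kb away. Over all members the GC content had a median of 65.8% (quartiles 61.8 and 70.0%), the CpG ratio 0.841 and the CpG count 44 per window, against 54.6%, 0.480 and 17 in CpG-poor promoter windows.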

How the data were processed

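Per the study's methods and processing notes, the authors trimmed reads, mapped them to mm9 with Bowtie2 version 2.1.0, kept unique reads of good quality, removed duplicates (Picard version 1.79) and mitochondrial reads, and called summits on pooled single cells with MACS2, whose version is not given in the sources used here. No shift was set, so read ends were not centered on the transposase cut. The authors deposited 1 list of 50000 windows of 500 bp around the summits with the lowest q-values. It holds positions and names only, with no score or count, so depth and precision per window are unknown, and 1 pooled list allows no replicate error. The letter in a window's name marks a summit of a called peak; a call with 2 or more kept windows is called broad.

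Members, gene lists, elements and named-gene rules were chosen with earlier results of these data known. Start sites were the 45993 protein-coding ones of GENCODE M1 on chromosomes 1 to 19 and X, on the same build. A window's summit was its start plus 250 bp. All but 1 of 679 entries in 18 gene lists matched a gene, 8 of them through a synonym, and a symbol with 2 records counted as having a window if either did. As counted per group, 76 of 77 ribosomal protein entries and 36 of 37 blood and endothelial entries were used. Named genes were, per list, up to 4 with the most member windows and up to 4 without a window, the 12 genes and 8 called peaks with the most member windows, up to 2 genes per element, and Epcam, Hif1a, Gata3, Vegfa, Gapdh and Actb. Some genes that this rule names are not reported here. Sequences were cut to the part upstream of the nearest start and outside annotated exons, which left no YY stretch to show. Counting used Python 3.11.15, numpy 2.4.6 and scipy 1.17.1 after a test on simulated data, and no significance test was run. Alternatives covered the distance, GC and CpG limits, divergent distance, start sites, windows counted and the part of the window searched for elements.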

Additional observations from a re-analysis of the deposited data

How the results depend on the processing

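With limits of GC 60% and a CpG ratio of 0.75, 70.0% of island genes had a member window, with 1 start site per gene 77.3%, and with only calls of 2 or more kept windows 31.0%. The upstream share was 48.5% with 1 start site per gene and 61.0% with 1 window per called peak. The share of members in calls with several windows was 5.41% when windows overlapping by 250 bp were merged. The share of island genes with a member window stayed within its interval with starts within 500 bp, looser sequence limits (GC 50%, ratio 0.6) and divergent pairs up to 2 kb, and the number of members was then 8943, 11107 and 9717. The X ratio stayed within its interval in the 3 alternatives run for it, and the upstream and several-window shares were not run with the 500 bp, looser or 2 kb settings. Among the gene lists, 6 of 18 moved beyond their intervals under the stricter limits, 12 with broad calls only, and none with starts within 500 bp. All 15 element shares fell when the middle 200 bp were searched, a shorter stretch, and 8 moved with 1 window per gene. No paired analysis was possible because the list is 1 pooled sample, and for the same reason no replicate could be left out. The list was cut by rank and holds no depth, so an absent window shows no closed chromatin, and breadth depends on how many summits of a call were kept. Single-cell, stain and HIF1α differences are not analysed here.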

Other observations

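Noncoding transcripts started near some of the islands. A lincRNA or processed transcript start pointing away from the island start within 1 kb was annotated for 5.62% (5.09 to 6.19%) of the 6889 island genes with a member window and 3.77% (2.91 to 4.79%) of the 1673 island genes with no window. By start site the shares were 5.77% (5.37 to 6.19%) and 4.34% (3.60 to 5.18%). The members were chosen to have no divergent protein-coding partner, and the rule did not look at these noncoding starts. Other kinds of annotated transcripts, such as noncoding transcripts of protein-coding genes, were not searched for divergent starts.

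Of the members, 1.93% (1.67 to 2.22%) lay within 1 kb of protein-coding starts of 2 genes that faced each other, and 2.65% (2.34 to 2.99%) lay within 1 kb of starts of 2 or more genes.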
